A study of Caenorhabditis elegans with 2 samples.

Results

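The 294 nuclear genes that the Ensembl WBcel235 annotation gives the biotype lincRNA (194 genes) or antisense_RNA (100 genes) were examined for binding of MDT-29 in Caenorhabditis elegans, among 46890 nuclear genes in all. They were chosen by biotype alone, with no measured value. A gene was counted as bound when the summit of an MDT-29 peak lay inside it or within 250 bp of either end. The data came from chromatin immunoprecipitation followed by sequencing (ChIP-seq) on whole worms, in 1 group of 2 biological replicates and with no second condition. Both replicates were of strain RJP4521. Its allele rp133, on chromosome III and spelled Degron::GFP::mt-29 in the labels, carries a degron and green fluorescent protein (GFP) inserted at mdt-29 by CRISPR. They were L4 larvae at 48 hours, grown from L1 larvae starved after bleaching. The descriptions name an antibody against GFP. No untagged strain or input sample was analysed here, the cell types in which binding took place are not known, and sequencing depth is unknown because the lists give no read totals.

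Mediator is the large complex that carries signals from DNA-bound activators to RNA polymerase II, and MDT-29 is one of its subunits. RNA polymerase II also transcribes long noncoding RNA genes. In the worm, lincRNA genes carry the prefix linc and lie mostly between coding genes, and many antisense genes carry the prefix anr and lie on the strand opposite a coding gene. ChIP-seq does not tell the strands apart, so a summit inside an antisense gene lies equally inside its coding partner. For most of these RNAs no function is established. An exception is lep-5, a lincRNA that helps to time larval development.

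To show what DNA lay under the strongest of these peaks, the sequence from 75 bases before to 75 bases after the summit is given for 8 members, each at its strongest peak. They are those of highest signal apart from anr-20 and linc-84. All are in ce11 coordinates (RefSeq sequence of WBcel235), read 5' to 3' on the strand of the lincRNA or antisense gene. Capitals mark matches to the short motifs described further on, and lower case stretches hold none. The positions are linc-128 chrV:1151438-1151588 (plus strand), linc-44 chrII:5782099-5782249 (minus strand), linc-142 chrX:12518626-12518776 (minus strand), anr-54 chrII:5330304-5330454 (minus strand), linc-109 chrIII:10733455-10733605 (minus strand), F17C11.20 chrV:10968073-10968223 (plus strand), linc-154 chrX:2328996-2329146 (plus strand), linc-78 chrX:2242926-2243076 (plus strand).
linc-128: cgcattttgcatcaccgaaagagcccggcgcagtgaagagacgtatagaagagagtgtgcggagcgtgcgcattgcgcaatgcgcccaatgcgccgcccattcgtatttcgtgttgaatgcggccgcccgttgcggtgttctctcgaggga
linc-44: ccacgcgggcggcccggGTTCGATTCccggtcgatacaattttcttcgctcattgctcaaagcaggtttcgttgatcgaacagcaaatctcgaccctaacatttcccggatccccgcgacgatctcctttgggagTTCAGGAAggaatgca
linc-142: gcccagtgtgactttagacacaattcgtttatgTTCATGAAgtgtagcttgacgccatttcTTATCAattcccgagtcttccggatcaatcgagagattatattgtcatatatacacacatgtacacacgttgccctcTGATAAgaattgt
anr-54: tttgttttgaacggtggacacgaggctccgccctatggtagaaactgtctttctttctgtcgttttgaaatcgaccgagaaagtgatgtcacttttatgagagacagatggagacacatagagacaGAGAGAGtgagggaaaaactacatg
linc-109: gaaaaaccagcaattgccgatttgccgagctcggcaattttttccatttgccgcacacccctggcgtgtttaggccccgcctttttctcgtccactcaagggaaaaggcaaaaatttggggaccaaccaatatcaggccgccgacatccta
F17C11.20: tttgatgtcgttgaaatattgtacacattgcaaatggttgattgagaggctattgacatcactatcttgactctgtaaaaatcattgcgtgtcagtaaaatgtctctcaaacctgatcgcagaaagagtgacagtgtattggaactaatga
linc-154: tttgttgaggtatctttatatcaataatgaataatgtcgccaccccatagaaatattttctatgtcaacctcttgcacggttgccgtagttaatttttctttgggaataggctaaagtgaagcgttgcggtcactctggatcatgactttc
linc-78: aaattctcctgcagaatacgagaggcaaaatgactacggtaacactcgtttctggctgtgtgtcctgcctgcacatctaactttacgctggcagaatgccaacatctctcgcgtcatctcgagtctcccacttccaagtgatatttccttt
The base composition differed widely among them, from 36.4% G and C at F17C11.20 and 38.4% at linc-154 to 54.3% at linc-44 and 58.9% at linc-128. The linc-44 window holds, in its first capitals, the core of a B box, an internal promoter element of transfer RNA (tRNA) genes, and a tRNA gene lies there.

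MDT-29 summits marked 19 of the 294 genes, 6.46% (exact 95% interval 3.935 to 9.91%). By the same rule 4.12% of all nuclear genes and 5.24% of the 19973 protein-coding genes were bound, and both values lie inside that interval. So does the share of 5.96% among nuclear genes that are not of biotype piRNA. Of the lincRNA genes 15 were bound (7.73%, 4.39 to 12.4%) and of the antisense genes 4 (4%, 1.10 to 9.93%), intervals that overlap. The bound lincRNA genes were linc-1, linc-44, linc-78, linc-81, linc-84, linc-90, linc-91, linc-103, linc-105, linc-109, linc-128, linc-129, linc-142, linc-154 and K07C10.8. The bound antisense genes were anr-20, anr-45, anr-54 and F17C11.20. Among genes with the prefix linc 14 of 169 were bound, among those with anr 3 of 57, and among the others 2 of 68. Intervals cover counting error only and treat genes as independent.

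The share bound differed with gene length, and the rule itself gives a longer gene more bases in which a summit can fall. Of the 110 members up to 500 bp long 3 were bound (2.73%, exact interval 0.566 to 7.76%), and of the 73 over 500 and up to 1000 bp only linc-84 (1.37%, 0.0347 to 7.40%). Of the 61 members over 1000 and up to 2000 bp 7 were bound (11.5%, 4.74 to 22.2%), and of the 50 longer ones 8 (16.0%, 7.17 to 29.1%). The intervals of the shortest and the longest class overlap narrowly. The bound members had a median length of 1661 bp against 689 bp for the 275 others. Protein-coding genes of these lengths, from short to long, were bound at 2.56, 4.02, 3.50 and 6.92%. In the class from 1000 to 2000 bp the coding share, with an upper bound of 3.99%, was below the members' interval, and in the longest class the upper coding bound of 7.43% reached into it. The longest class has no upper limit, so lengths within it were not matched.

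**Figure D1:**
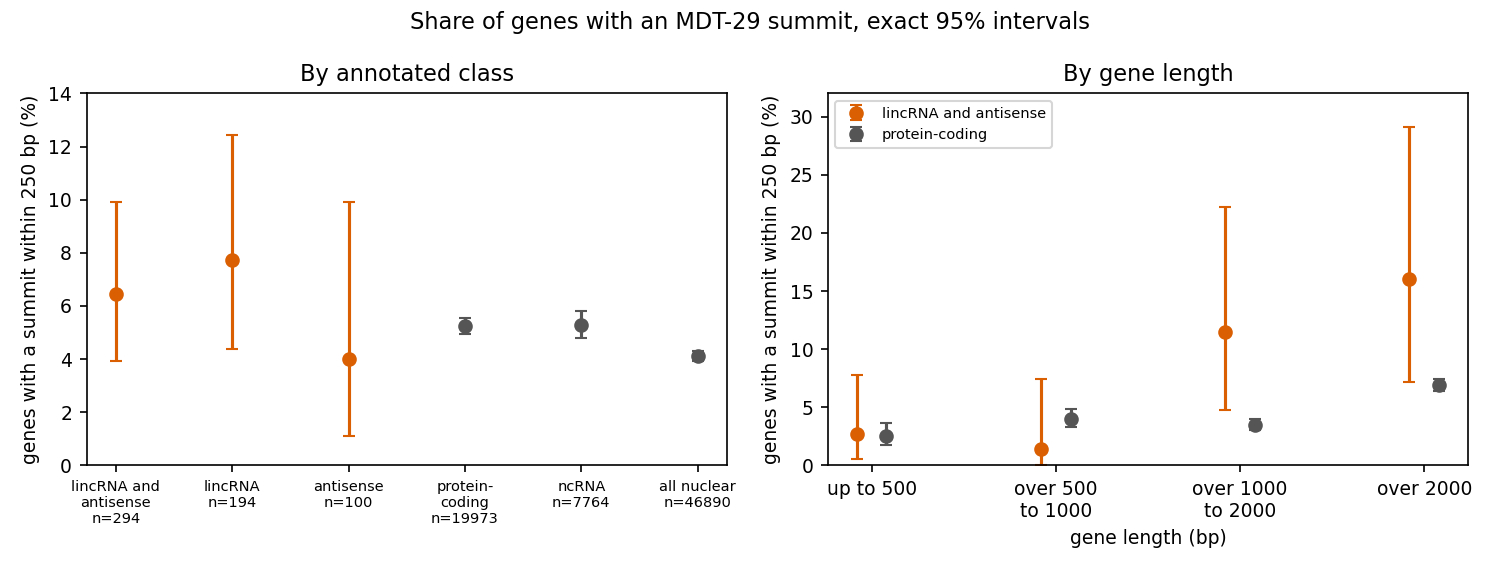
Percent of genes with an MDT-29 summit within 250 bp, by annotated class (left) and by gene length for members and protein-coding genes (right); points are shares in the main list and bars exact 95% intervals. The 294 members stand at 6.46% against 5.24% for protein-coding genes, and members over 2000 bp long at 16.0% against 6.92%. The intervals overlap in both cases, and the class over 2000 bp has no upper limit of length.

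Counted per base, summits in the main list were denser at lincRNA genes than in the rest of the genome, while for antisense genes the interval held the value outside. The 294 genes with 250 bp on each side cover 478.8 kb and held 26 of the 1705 main peaks (1.52%), or 54.3 summits per Mb (exact Poisson 95% interval 35.5 to 79.6). The rest of the nuclear genome held 16.8 per Mb, a ratio of 3.23. The windows of protein-coding genes, which cover far more of the genome, held 15.6 per Mb. LincRNA genes held 63.6 per Mb (21 summits, 39.4 to 97.2), a ratio of 3.77. In the list of replicate 1 they held 24.2 per Mb (8 summits, 10.5 to 47.7) against 7.69 outside. In that of replicate 2 they held 18.2 (6 summits, 6.67 to 39.6) against 10.45 outside, a value inside the interval. Antisense genes held 33.7 per Mb (5 summits, 10.9 to 78.5) against 17.0 outside, a ratio of 1.98, which was 0.868 in the list of replicate 1 (1 summit) and 1.93 in that of replicate 2 (3 summits). From 1 sample alone members held 18.8 per Mb in either list (9 summits each, 8.595 to 35.7). That compares with 7.70 outside for replicate 1, a ratio of 2.44, and 10.4 outside for replicate 2, a ratio of 1.80, and the interval holds the latter. Bases outside coding genes, over 500 bp from a coding 5' end and over 250 bp from a small RNA gene, gave 34.2 per Mb at members (10 summits, 16.4 to 62.8) and 15.3 elsewhere. The Poisson intervals treat summits as independent, although at anr-20, linc-90 and linc-91 2 summits lay only 200 to 205 bp apart.

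Fewer members were bound in the single samples, as were fewer genes in all. In the list made from replicate 1 alone 9 members were bound (3.06%, exact interval 1.41 to 5.73%), against 1.90% of all nuclear genes. In that from replicate 2 alone 8 were bound (2.72%, 1.18 to 5.29%), against 2.74%. Without genes of biotype piRNA the nuclear shares were 2.76 and 3.98%, and protein-coding genes stood at 2.39 and 3.37%. The members' intervals hold all of these shares. Bound in both single-sample lists were 4 members, linc-128, anr-20, linc-44 and linc-90. The authors' conservative list, also made from both samples, marked 17 members (5.78%), against 4.03% of all nuclear genes. Without genes of biotype piRNA the nuclear share there was 5.83%, and that of protein-coding genes 5.21%. The conservative list shared 16 of its 17 members with the main list and added linc-153. Not bound in it were linc-81, linc-91 and anr-45. It lacked 7 of the 26 main peaks at members. These were the peaks of those genes, the linc-129 intron peak, the linc-105 start peak and the weaker linc-90 peak. The share of all main peaks that it lacked was not counted. Replicate 2 alone added anr-5.

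The strongest of the 26 peaks, at linc-128, had rank 23 of 1705, the next, at anr-20 and linc-44, had ranks 211 and 414, and the other 23 ranked at 527 or lower in the order. Signal, the strength the authors' processing gave to each peak, ranged at member peaks from 3.76 to 589.5 with a median of 92.3, and over all 1705 main peaks the median was 99.5. At or above that overall median were 10 of the 26. Only the linc-128 peak (589.5) was above 200, and the next was the stronger anr-20 peak at 184.2. In the single samples the member peaks had medians of 47.7 (replicate 1, 25 peaks with a value) and 48.4 (replicate 2, 26 peaks), against 46.5 and 57.9 over all main peaks. Whether the signal is on 1 scale in the 2 samples is not stated.

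**Figure D2:**
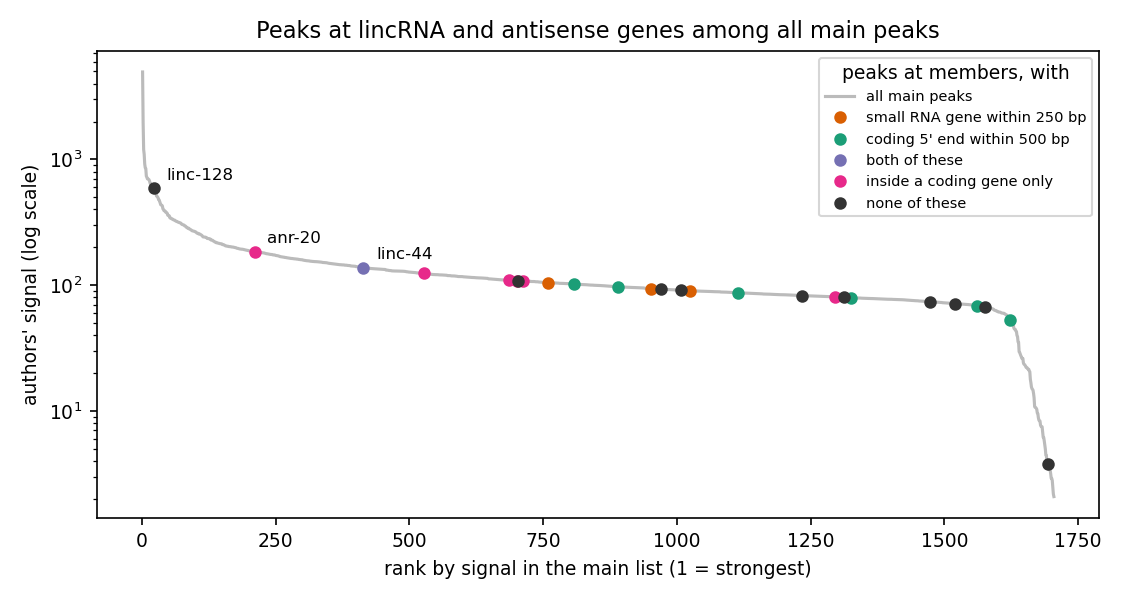
Signal of each main peak (log scale) against its rank by signal; the grey line is all 1705 peaks and the points are the 26 peaks at lincRNA and antisense genes, coloured by what else lay near the summit. The linc-128 peak stands at rank 23, and all other points lie at rank 211 or lower in the order.

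Among the lincRNA genes, 7 had peaks with no coding 5' end within 500 bp, no small RNA gene within 250 bp and no coding gene over the summit. They were linc-128, linc-109, linc-129, linc-105, linc-103, linc-81 and linc-91, with 10 peaks.

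The strongest was linc-128, a single-exon gene of 2302 bp on the plus strand of chromosome V (1150906 to 1153207). Its peak at 1151371 to 1151643 had rank 23 of 1705, and the summit at 1151513 lay in the exon, 607 bp after the start. The signal was 280.6 in replicate 1 and 298.5 in replicate 2, a mean of 289.5 ± 12.7 (SD, n = 2). These are ranks 17 of 777 and 22 of 1050 in the single-sample thresholded lists, so both samples placed it near the top. Their own summits were at 1151481 and 1151517. The nearest coding 5' end, that of the calmodulin gene cmd-1, was 4758 bp away, and the nearest small RNA gene 69800 bp.

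On chromosome III, linc-109 is a 2-exon gene of 4409 bp on the minus strand (10732273 to 10736681) with a summit in an exon 3151 bp after the start. The signal at linc-109 was 60.0 in replicate 1 and 39.8 in replicate 2, and 108.4 in the main list. The nearest coding 5' end was that of tat-3, which belongs to the family of lipid-transporting P-type ATPases, at 2825 bp. On the same chromosome linc-129 (10817263 to 10821245, plus strand, 2 exons) had 2 summits 1236 bp apart, both in its body, with main signals of 93.0 and 82.7. The former, in the intron, had 58.4 in replicate 1 and 31.3 in replicate 2, and the latter, in an exon, 35.8 and 48.9, so the samples ranked the pair in opposite orders. The nearest coding 5' end to both linc-129 summits was that of sca-1, which encodes the calcium pump of the sarcoplasmic and endoplasmic reticulum, at 1811 and 3047 bp.

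Also on chromosome III, linc-105 (10718341 to 10719485, plus strand) had a summit 105 bp before its start and another 194 bp before its end. Main signals at linc-105 were 80.4 and 91.5. In the single samples they were 27.9 and 51.3 at the start, and 52.7 and 44.1 near the end, for replicates 1 and 2. Neither linc-105 summit was in a single-sample thresholded list. Beyond these, linc-103 on X had a summit 211 bp before its start (signal 32.2 and 47.1) and linc-81 on V a summit 37 bp after its start (28.1 and 45.7), each weak and in neither single-sample thresholded list. On chromosome I, linc-91 had 2 summits 205 bp apart in its body, with main signals of 67.3 and 3.76, the latter at rank 1694. For the former linc-91 peak the single samples gave 33.1 and 27.6 and for the latter 33.1 and 21.9, where the value of replicate 1 is that of 1 peak overlapping both.

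Small RNA genes lay within 250 bp of 4 member peaks, at linc-44, linc-154, linc-84 and K07C10.8. The gene linc-44, only 193 bp long (chromosome II 5781921 to 5782113, minus strand), had the strongest of these peaks, at 137.8 in the main list and 67.3 in each of the 2 samples. The linc-44 summit lay 61 bp before the gene's start, 38 bp from the tRNA gene F10C1.t1 and 346 bp from the 5' end of the coding gene K05F1.6. At linc-154 (chromosome X 2326744 to 2329092, plus strand) the summit lay 21 bp before the end of the gene and inside the microRNA gene mir-8196a. The linc-154 signal was 33.1 in replicate 1 and 60.9 in replicate 2.

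The lincRNA gene K07C10.8 (chromosome II 11166676 to 11167706, plus strand) holds in its intron the gene K07C10.2, a small nucleolar RNA (snoRNA), the class that guides chemical modification of other RNAs. Its summit lay inside that snoRNA gene, with a signal of 60.9 in replicate 1 and 51.6 in replicate 2. The gene linc-84 (chromosome I 8865945 to 8866624, plus strand) had a summit outside each end, 235 bp before the start and 238 bp after the end. The former was 161 bp from the 5' end of the coding gene F55H12.7 and the latter inside the snoRNA gene F55H12.9. For linc-84 the signals were 41.1 and 56.6 before the start, and 56.0 and 34.1 after the end, in replicates 1 and 2. In all, 14 of the 294 members had a small RNA gene within 250 bp of the gene, and these 4 of them were bound (28.6%, exact interval 8.39 to 58.1%). Of the 733 protein-coding genes with a small RNA gene that near, 37.2% were bound (33.7 to 40.9%), so the members' share was not above theirs.

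Coding 5' ends lay within 500 bp of 7 member peaks, at 6 members. At linc-78 (chromosome X 2243115 to 2243239, plus strand, 125 bp long) the summit was 114 bp before the start and 383 bp from the 5' end of rpl-11.2, which encodes a protein of the large ribosomal subunit. The linc-78 signal was 64.5 in replicate 1 and 38.8 in replicate 2. At linc-1 on chromosome I, 204 bp long, the summit was 13 bp past the end and 464 bp from the 5' end of rpl-31, another gene of the large ribosomal subunit. The linc-1 signal was 31.4 in replicate 1 and 63.0 in replicate 2, the reverse order of linc-78. At linc-90 on chromosome III 2 summits 200 bp apart lay in its intron, 67 and 267 bp from the 5' end of gei-4, with main signals of 79.6 and 53.3. Both took the same single-sample values, 47.7 and 35.9, since their peaks overlap the same peak there. At anr-45 on chromosome I the summit lay 142 bp past the end, in an exon of cdk-2, a cyclin-dependent kinase gene, and replicate 1 had no ranked peak there. The remaining cases were linc-44 and the summit before the start of linc-84.

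Antisense genes overlapped a coding gene in 93 of 100 cases, and all 4 bound ones did. On chromosome I anr-20 (9382458 to 9383548, plus strand) had 2 summits 200 bp apart in its single exon, 537 and 737 bp after the start. Both lay in an intron of ppfr-1, which encodes a regulatory subunit of a protein phosphatase. Main signals at anr-20 were 184.2 and 124.0, and both peaks took the same single-sample values, 80.0 in replicate 1 and 96.1 in replicate 2 (88.1 ± 11.3, SD, n = 2). On chromosome II anr-54 (5329561 to 5331221, minus strand) had a summit 842 bp after its start, in an intron of vhp-1, which encodes a phosphatase of stress-activated MAP kinases. The anr-54 signal was 41.6 in replicate 1 and 60.0 in replicate 2. On chromosome V F17C11.20 (10968312 to 10969544, plus strand) had a summit 164 bp before its start, in an intron of F17C11.22, with 46.0 and 58.2. The lincRNA gene linc-142 (chromosome X 12517114 to 12519034, minus strand) also lies in a coding gene, scd-1, and on the same strand. Its 2 summits, 333 and 1477 bp after the start, were in introns of scd-1, with 51.9 and 47.8 at the former and 31.2 and 54.9 at the latter. Replicate 1 was lower than replicate 2 at anr-20, anr-54, F17C11.20 and the latter linc-142 summit, and higher at the former.

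**Figure D3:**
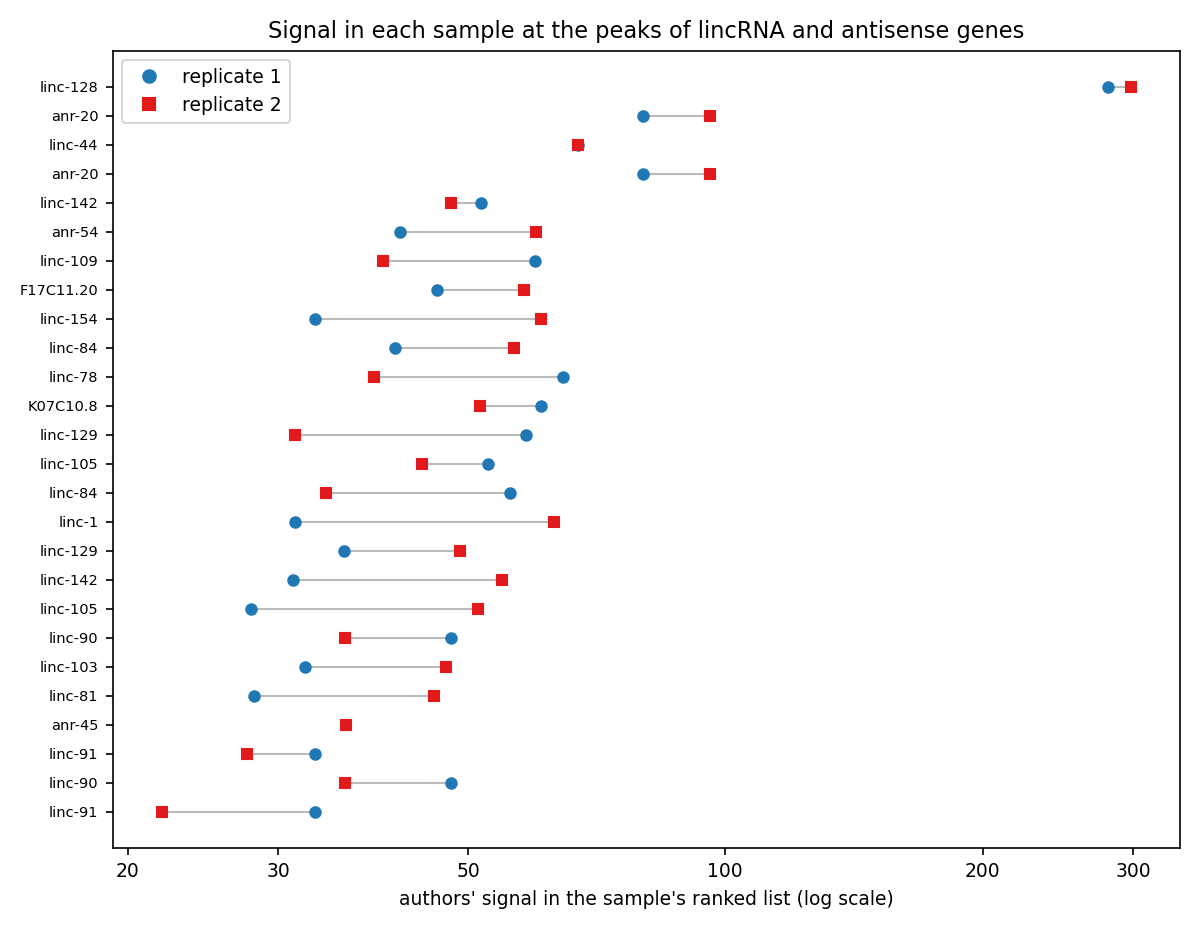
Signal in each sample's ranked list (log scale) for the 26 peaks at lincRNA and antisense genes, ordered by main signal; circles are replicate 1, squares replicate 2, and a line joins the 2. The linc-128 pair, 280.6 and 298.5, stands apart, and all other values lie at 96.1 or less.

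The 2 samples ordered the member peaks only partly alike. Replicate 2 was higher than replicate 1 at 13 of the 25 peaks with both values, and their ratio ranged from 0.536 to 2.01 with a median of 1.06. Over those 25 peaks Spearman's rho between the samples was 0.227, a description over peaks that in some cases share a single-sample peak. In the thresholded lists of both samples were 7 of the 26 peaks (26.9%, against 32.3% of all main peaks), and in neither 11 (42.3%, against 33.9%). Here a main peak was counted when a peak in the list overlapped it, unlike the summit rule used for genes. By overlap the linc-84 peak after the gene's end was in both lists, though linc-84 was not bound in both.

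Summits lay in the body of the gene in 14 cases, within 250 bp of the start in 7 and within 250 bp of the end in 5, by the nearer end. Per base of these zones that is 66.3 per Mb in bodies (exact Poisson interval 36.2 to 111.2), 51.2 at starts (20.6 to 105.5) and 36.6 at ends (11.9 to 85.4), and the intervals overlap widely. In exons of the member lay 13 summits, in its introns 4 and outside the gene 9. With a limit of 100 bp in place of 250, starts and ends fell to 2 each, and the other 22 summits were 15 in the gene and 7 outside it. Counting only the annotated 5' end, a summit lay within 250 bp at 8 members (2.72%, exact interval 1.18 to 5.29%), against 2.55% of all nuclear genes and 1.83% of protein-coding genes by the same rule. The interval holds both.

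**Figure D4:**
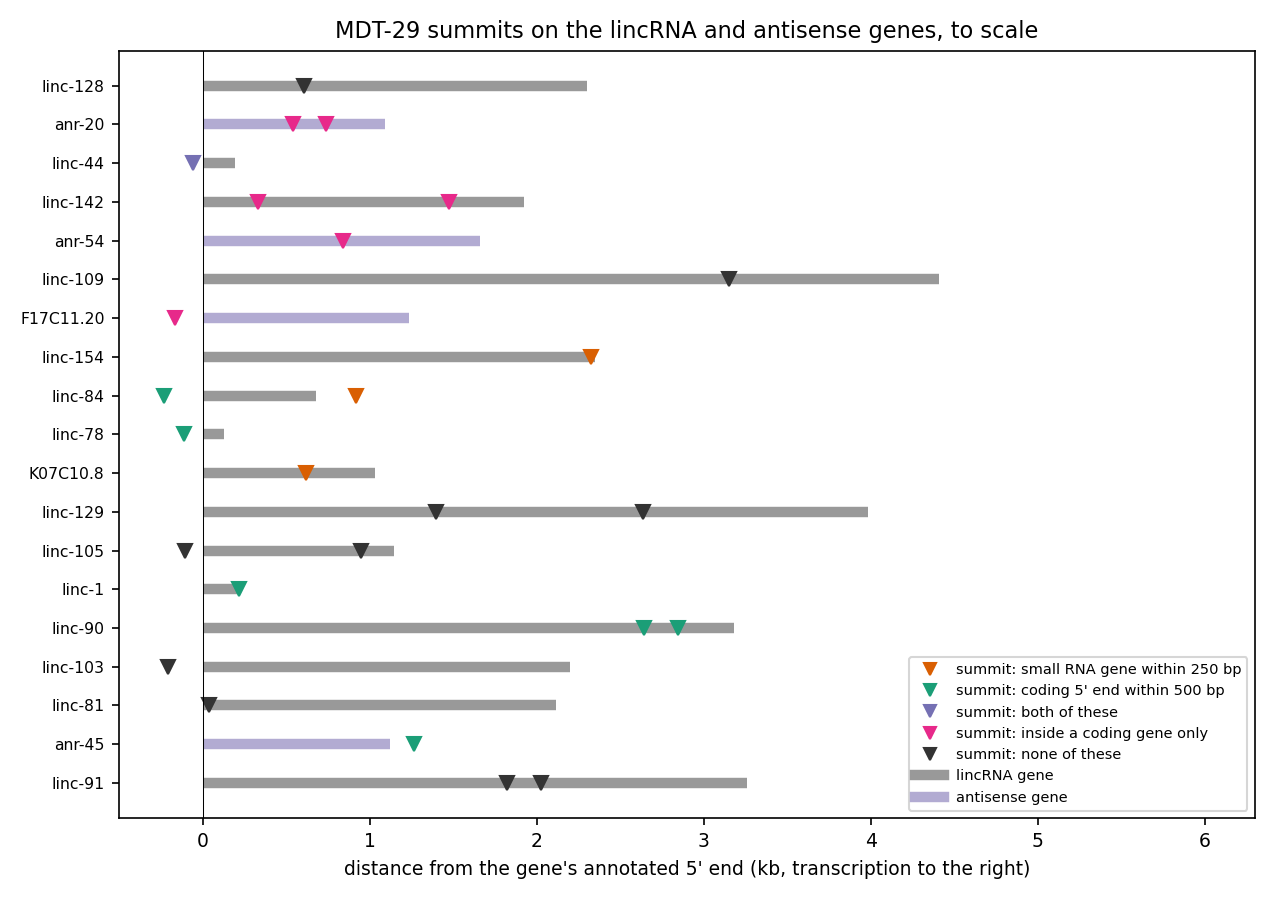
The 19 bound genes drawn to scale from their annotated 5' end (0 kb), with grey bars for lincRNA and violet for antisense genes; triangles are MDT-29 summits, coloured by what else lay near. In 14 of 26 cases the summit is over 250 bp from both ends, as at linc-128 (607 bp after the start) and linc-109 (3151 bp).

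A set of 8 short motifs was searched on both strands within 75 bp of each summit, as a description only. These were GAANNTTC and TTCNNGAA (pairs of heat shock element units, which overlap in tandem arrays), TGATAA (bound by GATA factors), CACGTG (E box), TGACGTCA (cAMP response element), GTTCGANNC (core of the tRNA B box), GAGAGAG (GA repeat) and TTTTTTTT. The GA repeat was in 8 of the 26 member windows (30.8%, exact interval 14.3 to 51.8%), at linc-81, linc-84, linc-90, linc-105, linc-142, anr-54 and both linc-91 summits. It was in 8.09% of all 1705 main windows and in 2.03% of the 664054 tiles of that length that make up the nuclear genome. Among peaks away from coding 5' ends and small RNA genes it was in 6 of 16 at members (37.5%, 15.2 to 64.6%) and in 7.95% of 767 elsewhere (6.14 to 10.1%). The matching peaks at linc-81 and linc-91 were in neither single-sample thresholded list and not in the conservative list. They are counted among the 6 of 16. The linc-91 peaks overlap each other, with summits 205 bp apart, and the weaker had a signal of only 3.76. The intervals treat all windows as independent. Peaks with it at members had main signals of at most 108.6, and the linc-128 window did not match.

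To show these repeats beside their surroundings, 4 further windows with a match follow, again on the strand of the lincRNA gene, with the GA repeat or its reverse, CTCTCTC, in capitals. Which windows to show was chosen after the counts were seen. The positions are linc-105 chrIII:10719216-10719366 (plus strand), linc-142 chrX:12517482-12517632 (minus strand), linc-90 chrIII:354792-354942 (plus strand), linc-81 chrV:19897683-19897833 (minus strand).
linc-105: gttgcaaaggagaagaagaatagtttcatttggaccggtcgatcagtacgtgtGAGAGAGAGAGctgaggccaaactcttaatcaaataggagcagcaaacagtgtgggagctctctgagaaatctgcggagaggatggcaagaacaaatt
linc-142: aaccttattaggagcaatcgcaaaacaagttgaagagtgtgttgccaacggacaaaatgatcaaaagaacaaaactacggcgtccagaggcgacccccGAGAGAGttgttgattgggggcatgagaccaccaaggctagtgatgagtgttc
linc-90: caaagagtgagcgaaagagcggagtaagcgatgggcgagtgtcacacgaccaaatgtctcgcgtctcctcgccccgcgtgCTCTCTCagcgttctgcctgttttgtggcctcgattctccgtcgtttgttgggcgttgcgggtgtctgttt
linc-81: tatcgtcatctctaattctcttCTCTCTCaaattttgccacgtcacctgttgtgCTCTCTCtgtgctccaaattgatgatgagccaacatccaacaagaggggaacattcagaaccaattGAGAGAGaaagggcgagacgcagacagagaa
At linc-105 it matches at 3 overlapping starts in 1 run, at linc-81 at 3 separate places, and at linc-142 and linc-90 once.

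The other motifs were in few windows. TGATAA was in 4 of 26 (15.4%, against 14% of main windows and 13.8% of tiles), TTCNNGAA in 3 (11.5%, against 10.9 and 10.6%) and GAANNTTC in 1 (3.85%, against 12.4 and 11.1%). CACGTG was in 2, at linc-1 and anr-45 (7.69%, against 9.62 and 2.52%), TTTTTTTT in 2 (7.69%, against 7.39 and 17.9%) and TGACGTCA in 0 (against 0.997 and 0.840%). GTTCGANNC was in the linc-44 window alone (3.85%, against 10.1 and 1.15%). The member windows had a median of 46.4% G and C, against 45.0% over all main windows and 35.4% in the nuclear genome.

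**Figure D5:**
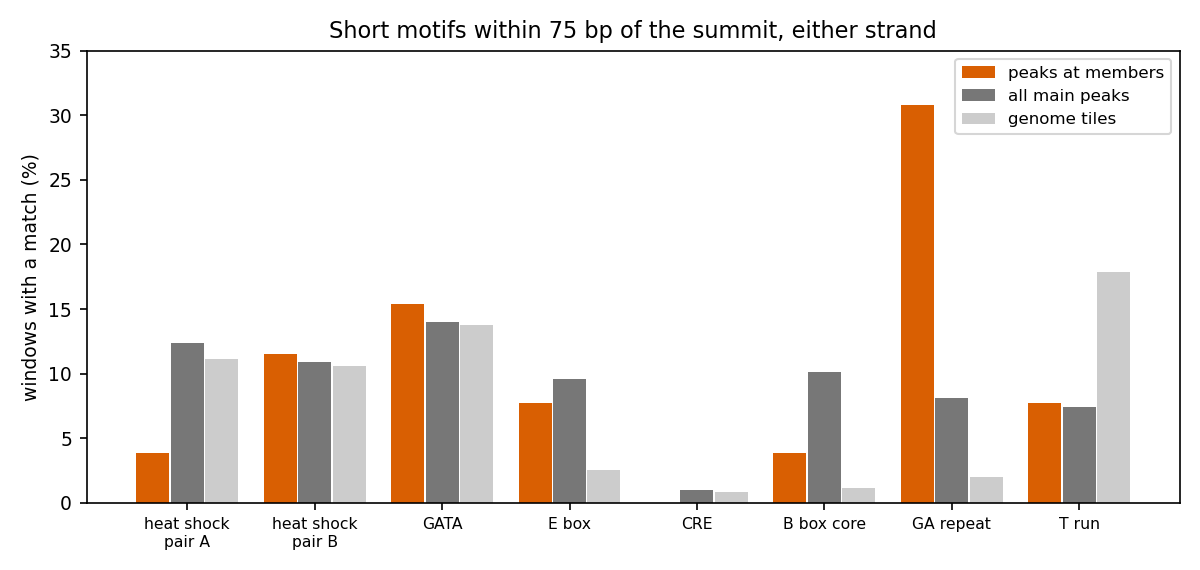
Percent of windows of 75 bp on each side that hold each motif on either strand, for the 26 peaks at members, all 1705 main peaks and the tiles of the nuclear genome; the motifs stand in the order in which the text lists them. The GA repeat is the tallest member bar, at 30.8% against 8.09 and 2.03%.

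Although their values overlapped with those of bound members, the 275 members that were not bound had lower median signals in both samples. In the far longer ranked lists, 142 of them had a peak summit within 250 bp in replicate 1, with a median signal of 18.4 and a highest of 45.7, and 165 in replicate 2, with a median of 20.5 and a highest of 49.2. The 19 bound members had medians of 52.3 (18 with a value) and 51.3. Their lowest values were 28.1 in replicate 1 and 26.1 in replicate 2, below the highest of the unbound members. The values here take ranked summits within 250 bp of the gene, whereas those given above for single genes take overlap with a main peak. Hence linc-84 has 26.1 here in replicate 2, and other values above. These ranked values come from the same libraries as the main peaks that chose the bound members, so they are given as a description only. Just outside the 250 bp limit were anr-43 (301 bp from a summit of signal 164.1), linc-108 (305 bp, 122.5) and linc-2 (320 bp, 59.7), and just inside it were linc-84 (238 bp, 90.6, and 235 bp, 102.3) and linc-103 (211 bp, 73.8). The lincRNA lep-5 on X had its nearest main peak 11704 bp away, and 17.2 and 10.2 as its highest ranked signals. Of the 49 members on chromosome IV 0 were bound (exact interval up to 7.25%), against 5.64% of the protein-coding genes there, a share inside the interval. Bound were 3 of 57 members on II (5.26%, coding genes 4.81%), 3 of 67 on V (4.48%, coding 3.56%), 4 of 45 on X (8.89%, coding 4.98%), 4 of 39 on III (10.3%, coding 7.5%) and 5 of 37 on I (13.5%, coding 6.39%). On each of these chromosomes the members' interval holds the coding share.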

How the data were processed

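Both samples entered through the lists of peaks the authors deposited, in ce11 (per the labels), which has the coordinates of WBcel235. The signal, per the deposited lists, is a strength for each peak whose scaling is not stated. The score in the deposited lists is a whole number up to 1000 that belongs to the irreproducible discovery rate procedure, and the thresholded lists start at 830. No source used here names the peak caller or aligner. The main list (1705 peaks) and the conservative list (1690) were made from both samples, and the lists of 777 and 1050 peaks from replicates 1 and 2, per the notes deposited with them.

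Genes came from Ensembl release 115 and sequence from RefSeq. For each sample, a main peak was given the highest signal of any ranked peak overlapping it. Nearby genes were coding 5' ends (500 bp) and tRNA, snoRNA, snRNA, rRNA or miRNA genes (250 bp). All bound members were named, and sequences were chosen by signal. Members, lists and motifs were chosen with earlier results of these data known, and no chance test was made. Shares have exact Clopper-Pearson and densities exact Poisson 95% intervals. Counting was tested on planted summits. The long noncoding RNA genes tts-1 and rncs-1 carry another biotype and are no members. Alternatives were other lists, each sample alone, other windows and leaving out peaks near other genes. Python 3.11.15, numpy 2.4.6, pandas 2.3.3 and scipy 1.17.1 were used.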

Additional observations from a re-analysis of the deposited data

How the results depend on the processing

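The count of 19 bound members was 16 to 19 in the conservative list, with any overlap of peak and gene, without peaks near small RNA genes and with 59 ranked peaks of passing score that the main list lacks put back, 14 without peaks near coding 5' ends, and 23 or 27 with windows of 500 or 1000 bp. It fell to 12 with summits inside the gene, 9 among peaks at or above the median signal, 11 without peaks near coding 5' ends or small RNA genes (chosen after seeing the data), and 8 to 9 in single samples, which have shorter lists. Shares of all nuclear genes were counted only for the conservative and single-sample lists. For the other settings it is not known whether members changed differently from genes in general. Of the 19, linc-128 and anr-20 were bound in all 12 alternatives. The density ratio of 3.23 was above 1 in every alternative run: 2.50 in the conservative list, 2.47 among the stronger peaks, 1.80 to 2.44 in single samples, 3.79 without peaks near coding 5' ends, 4.35 without those near either kind (added), 2.64 with 1000 bp, 3.92 with any overlap and 2.23 over intergenic bases alone (added). The median signal of 92.3 (99.5 over all main peaks) was 99.9 in the conservative list, against 99.7 over that whole list. Among the stronger peaks, cut at the overall median, it was 109.1 against 135.8. In each sample's thresholded list it was 60.9, against 63.9 over the whole list for replicate 1 and 71.6 for replicate 2. Those lists are shorter than the ranked lists that gave the member medians of 47.7 and 48.4. With 100 bp for gene ends, starts and ends numbered 2 and 2, and 22 summits were farther from both ends, 7 of them outside the gene. With 150 bp on each side of the summit the GA repeat was in 11 windows (42.3%, against 14.4% of all main windows). GAANNTTC was then in 3 (11.5%, against 20.2%), TGATAA in 7 (26.9%, against 25.4%) and CACGTG in 4 (15.4%, against 14.6%). GTTCGANNC was in 2 (7.69%, against 13.1%) and TTTTTTTT in 5 (19.2%, against 18.8%). The wider window itself holds more matches, and for the other changes the cause was not tested. Depth is unknown, so absence of a summit shows only that no peak passed the authors' threshold.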

Other observations

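On chromosome III, 3 of the 19 bound genes lay close together. The stretch from linc-105 to linc-129 (10718341 to 10821245, 102.9 kb) held 10 main peaks and 4 members, of which linc-105, linc-109 and linc-129 were bound and the antisense gene K11D9.5 was not. This stretch was picked after its values were seen.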
